A study of Oreochromis niloticus with 21 samples.

Results

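Of 17098 genes of the Nile tilapia, a warm-water fish, 16 had a brain level well below that of each of the other 6 tissues sampled. All 16 had a clear level in each of those 6. RPKM is meant to express the reads of a gene relative to its length and to the depth of the library. The level of a gene in a tissue was taken as log2(mean RPKM over 3 temperatures + 1). A gene was a member when its brain level lay at least 1.5 below the lowest of the other 6 tissue levels and its mean RPKM was at least 5 in each of those 6. The members were thus chosen by the measured values, so their low brain level is a description and carries no test. Of all genes, 1074 met the RPKM minimum in the other 6 tissues.

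The 7 tissues, brain, spleen, kidney, gill, heart, liver and muscle, were taken from fish that were 6 months old, per the labels. The fish were held for 12 h at 28, 18 or 10 °C, and no other treatment, strain or genotype is given for any group. Each of the 21 combinations of tissue and temperature gave 1 library of total RNA, so the 3 libraries of a tissue differ in temperature and are not replicates. No number of fish is given in the labels, nor whether different tissues came from the same fish.

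Brain is made up mostly of neurons and glia, and a barrier at its blood vessels keeps it apart from the circulation. Gill, heart, kidney, liver, muscle and spleen hold very different main cell types, but share blood vessels, connective tissue and resident immune cells. Genes present in all of these organs and scarce in brain can therefore belong to many kinds of cell. In bulk tissue, fewer cells of a type and less RNA per cell cannot be told apart. The files give each gene by its Ensembl ID, and 0 of the 17098 IDs matched the RefSeq table used here. No member could be given a symbol, a role or a sequence, and neither the labelled tissues nor cell types could be checked against marker genes.

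Depth was low and uneven. Reads on genes ranged from 331695 in brain at 10 °C to 3664523 in muscle at 18 °C, and the brain libraries held 505274 at 28 °C and 920617 at 18 °C. The deposited RPKM scale did not follow reads on genes. In liver at 28 °C, with 1507904 reads on genes, 1 read on a gene of 1 kb gave 0.945 RPKM. In brain at 28 °C, with fewer reads on genes, it gave 0.463. Summed over genes, RPKM ran from 92011 in brain at 10 °C to 1028634 in liver at 28 °C, with a median of 158134. Brain held 107404 at 28 °C and 111726 at 18 °C, and the gill libraries 101915, 127442 and 106718. Muscle, the lowest other tissue for 4 members, held 436557, 479665 and 693762 at 28, 18 and 10 °C. The gaps thus compare tissues on unlike totals. How far this entered them was not tested beyond the rescaled settings given below. A single gene, ENSONIG00000020875, held 21.5% of the reads in brain at 10 °C. The 3 libraries of liver at 28 °C, heart at 18 °C and brain at 10 °C stood apart from the other 2 libraries of their tissue in how level followed gene length. In brain at 10 °C the median gene of at most 1205 bp lay 1.53 log2 units below its level in the other brain libraries, against 0.01 above for genes of 3130 bp or more. In heart at 18 °C the short genes lay 1.75 above and the long ones at −0.33, and in liver at 28 °C they lay at 1.68 and −0.37. Values without these 3 libraries are given beside many of the main results that they enter.

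The gap between brain and the lowest other tissue ran from 1.51 to 2.21 log2 units over the 16 genes, with a median of 1.69. As a ratio of mean RPKM, the lowest other tissue was 2.86 to 15.6 times brain, with a median of 3.82. The members fell over a wide range of brain levels. In brain, 9 had a mean under 10 RPKM, 2 had a mean of 20 to 30 RPKM and 5 had a mean over 50 RPKM. Low in brain was therefore a relative statement for the last 5, which were still plainly expressed there.

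**Figure D1:**
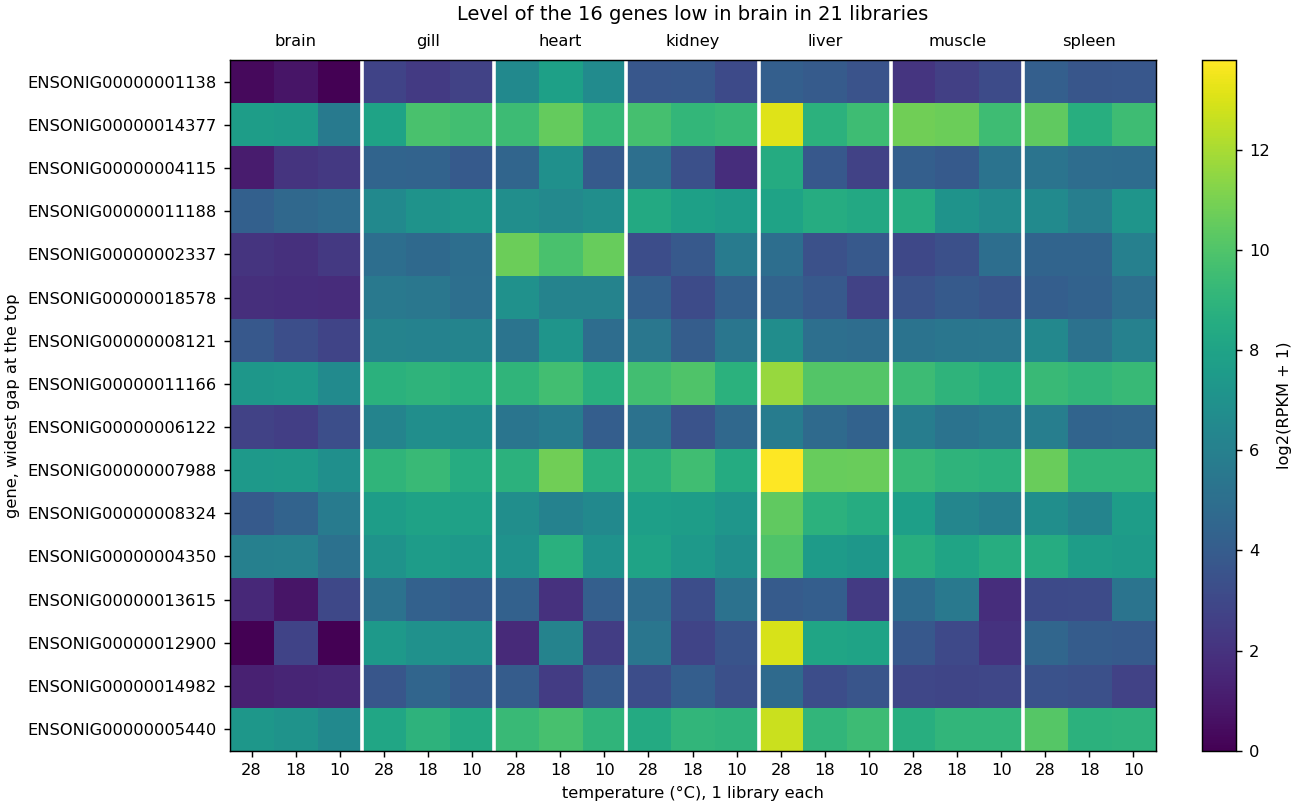
Heat map of log2(RPKM + 1) for the 16 genes (rows, widest gap at the top) in the 21 libraries (columns, 3 temperatures for each tissue). The brain columns are the darkest in nearly every row, and liver at 28 °C is the brightest column for several of the genes.

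The widest gap, 2.21, was that of ENSONIG00000001138. Its RPKM in brain was 0.253 at 28 °C, 0.737 at 18 °C and 0 at 10 °C, from 1, 5 and 0 reads. In the 18 other libraries it had a lowest value of 3.41, a median of 12.1 and a highest of 227. Heart held its 3 highest values, 91.2, 227 and 97.8, and gill its lowest mean outside brain, 5.16 ± 0.90 (SD over 3 temperatures, n = 3). At the gill mean, 67.0 reads would have been counted over the 3 brain libraries, where 6 were.

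ENSONIG00000014377 had the next widest gap, 2.14, at a much higher level. Its brain RPKM was 200 at 28 °C, 186 at 18 °C and 50.7 at 10 °C. In the 18 other libraries it ran from 259 to 8970 with a median of 732, so brain and the rest did not overlap. The 28 °C values of brain and gill, 200 and 259, were close, and the gap there was 0.37, against 3.56 at 10 °C. Its highest value was in liver at 28 °C, where it was 8970, against 460 and 731 in liver at 18 and 10 °C.

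ENSONIG00000007988 had the highest mean RPKM over the other 6 tissues, 1515, followed by ENSONIG00000014377 with 1307. In brain ENSONIG00000007988 stood at 176, 181 and 118 RPKM at 28, 18 and 10 °C, from 169, 297 and 64 reads. The other 18 libraries held 361 to 14128 RPKM, with a median of 517. Liver at 28 °C again held the highest value, and the lowest other tissue by its mean was gill, at 507. Brain was below every other library for this gene.

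The members outside these rules of choice are described next, and the order in which they appear was set after their values were seen. ENSONIG00000011188 had 18.1, 24.2 and 28.4 RPKM in brain at 28, 18 and 10 °C, and 59.5 to 372 in the other libraries with a median of 140. Its gap was 2.27, 1.27 and 1.78 at those temperatures, so brain was the lowest tissue at each.

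ENSONIG00000002337 had brain values of 3.14, 2.79 and 3.88 RPKM, from 57, 87 and 40 reads. It reached 1677, 918 and 1515 RPKM in heart, against 6.92 to 62.9 in gill, kidney, liver, muscle and spleen. Heart was thus far above the rest, and brain lay below the lowest of them.

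ENSONIG00000012900 was nearly unseen in brain, but on few reads. It had 0, 7 and 0 reads at 28, 18 and 10 °C, or 0, 5.78 and 0 RPKM. Liver held 7849, 276 and 258 RPKM, gill 165, 124 and 118, and muscle, the lowest of the 6, 12.7, 7.31 and 2.99. Heart held 2.09, 70.0 and 4.62. Its brain value at 18 °C was above its values in heart at 28 and 10 °C and in muscle at 10 °C, so brain and the rest overlapped. Few reads were not particular to brain: it had 5 and 3 in heart at 28 and 10 °C, 4 in kidney at 18 °C and 1 in muscle at 10 °C.

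ENSONIG00000013615 had brain values of 1.99, 0.697 and 7.02 RPKM from 5, 3 and 10 reads. Its other libraries ran from 2.52 in muscle at 10 °C to 46.6 in muscle at 18 °C. At 10 °C brain was above liver and muscle, and its gap there was −1.19.

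ENSONIG00000018578 and ENSONIG00000008121 were, like ENSONIG00000001138 and ENSONIG00000002337, highest in heart by their mean. ENSONIG00000018578 had 2.69, 2.45 and 2.36 RPKM in brain at 28, 18 and 10 °C, from 16, 25 and 8 reads, and 5.69 to 122 elsewhere with a median of 18.8. Its brain values were close to each other, with a mean of 2.50 ± 0.17 (SD over 3 temperatures, n = 3). ENSONIG00000008121 had 12.8, 8.89 and 6.06 RPKM in brain and 15.9 to 145 elsewhere, with a median of 42.9. Its heart mean rested on the 18 °C library, at 145, against 38.2 at 28 °C and a lower value at 10 °C.

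ENSONIG00000006122 and ENSONIG00000014982 were highest in gill by their mean. ENSONIG00000006122 had 5.67, 4.96 and 8.98 RPKM in brain, from 10, 15 and 9 reads, and 10.4 to 113 elsewhere with a median of 38.8. ENSONIG00000014982 had 1.45, 1.69 and 1.85 RPKM in brain, from 11, 22 and 8 reads, and 4.49 to 26.3 elsewhere with a median of 9.70. Its gill mean of 16.3 was close to its liver mean of 15.5, and its highest value was in liver at 28 °C. Neither overlapped between brain and the rest, and both were at low or moderate levels throughout the body.

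ENSONIG00000011166 and ENSONIG00000004350 belonged to the 5 members with a brain mean over 50 RPKM. ENSONIG00000011166 had 157, 169 and 94.4 RPKM in brain at 28, 18 and 10 °C, and 394 to 3218 elsewhere with a median of 584. ENSONIG00000004350 had 64.2, 64.5 and 35.0 RPKM in brain, from 501, 863 and 155 reads, and 117 to 1004 elsewhere with a median of 193. Both had their lowest brain value at 10 °C and their highest value of all in liver at 28 °C.

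ENSONIG00000004115 had 1.08, 3.15 and 3.80 RPKM in brain, from 1, 5 and 2 reads. Elsewhere it ran from 2.53 to 355, with a median of 20.3. At 10 °C kidney, at 2.53, lay below brain, and the gap was −0.44, against 3.11 at 28 °C.

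Near the threshold, the member with the narrowest gap was ENSONIG00000005440, at 1.51. It had 154, 136 and 90.6 RPKM in brain and 284 to 6628 elsewhere, with a median of 527. The nearest gene outside was ENSONIG00000006225, with a gap of 1.49, a brain mean of 4.20 RPKM and a liver mean of 13.6. A further 9 genes had the gap but fell short of the RPKM minimum in another tissue, the closest with a lowest tissue mean of 4.98. The lowest such mean among members was 5.16.

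For 15 of the 16 genes, the pooled brain value and that of the lowest other tissue lay apart by more than counting error. Pooled over the 3 libraries of a tissue, the 95% exact Poisson intervals overlapped only for ENSONIG00000012900, at 1.21 to 6.22 RPKM in brain and 4.07 to 12.5 in muscle. Brain reads per member summed to 6 to 1519 with a median of 124, and 7 members had fewer than 50. These intervals cover counting error and not the spread between fish. The rule used the same values, so this measures precision and is no test of the gap.

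**Figure D2:**
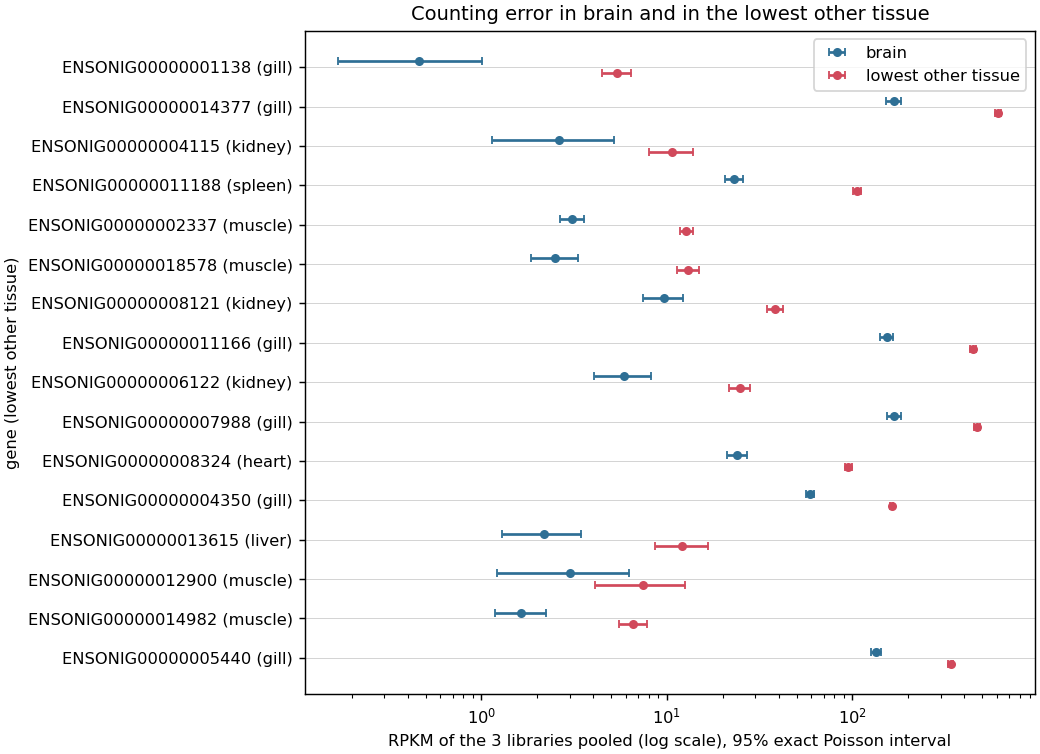
RPKM pooled over 3 libraries (log axis) with 95% exact Poisson intervals, for brain and for the lowest other tissue of each of the 16 genes. The intervals are apart in 15 genes and overlap for ENSONIG00000012900, and the widest brain interval belongs to ENSONIG00000001138, with 6 reads.

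All 3 brain libraries lay below all 18 others in 13 of the 16 members. The exceptions were ENSONIG00000004115, ENSONIG00000013615 and ENSONIG00000012900. The same held for 5.21% of the 1074 genes at the RPKM minimum, and since the rule used these values nothing is read from the comparison. Without the 3 libraries, both brain libraries lay below all 16 others in 14 members and in 9.59% of the 1074 genes.

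At single temperatures the gap was less regular than its mean. Brain was the lowest of the 7 tissues for 16 of 16 genes at 28 °C, 16 of 16 at 18 °C and 14 of 16 at 10 °C. Among all genes at the RPKM minimum in the other tissues at the same temperature, brain was lowest for 28.7%, 24.5% and 50.4%. It lay 1.5 or more below those tissues for 2.87%, 0.73% and 9.72% of these genes. The rule used the means of the same values, so nothing is read from the members' counts beside these shares. The gap reached 1.5 for 8 members at 28 °C, 4 at 18 °C and 10 at 10 °C, with medians of 1.56, 1.34 and 1.66. It did so at all 3 temperatures for 1 gene, ENSONIG00000001138, at 2 temperatures for 5, at 1 for 9 and at none for 1. The tissue lowest after brain was not the same at all 3 temperatures for any of the 16 genes. For 4 genes the gap of the means was therefore wider than the gap at any single temperature.

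**Figure D3:**
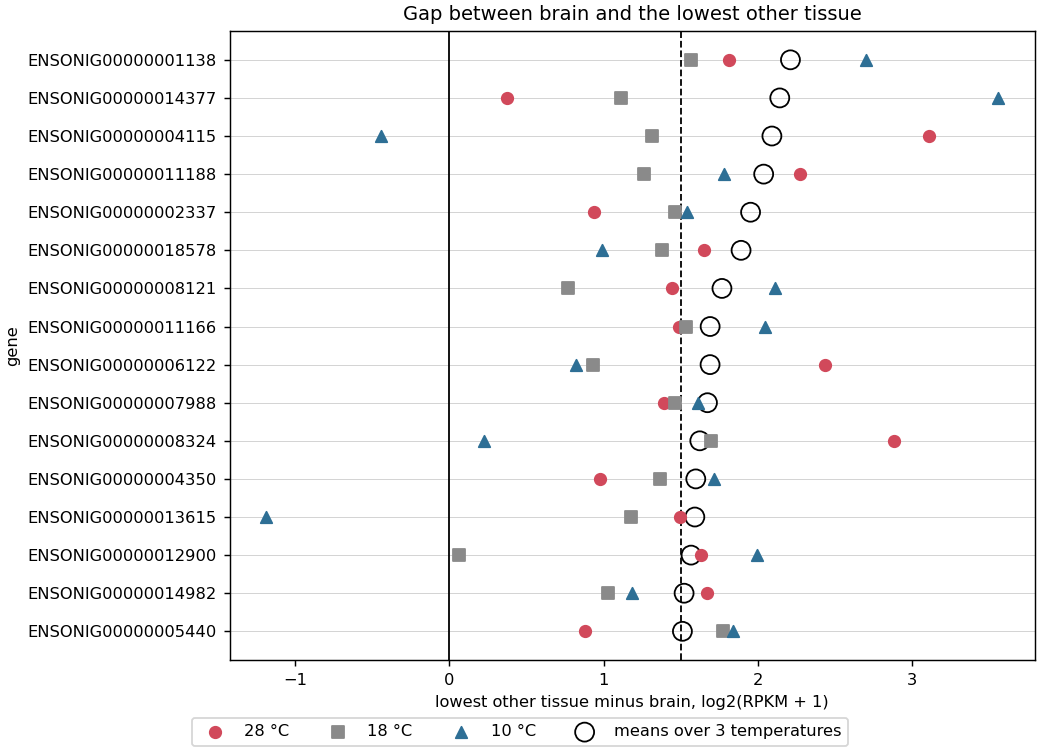
Gap between brain and the lowest other tissue, in log2(RPKM + 1), for each of the 16 genes at 28, 18 and 10 °C and for the means over the 3 temperatures. The dashed line marks 1.5; 1 gene lies beyond it at every temperature, and 2 genes fall below 0 at 10 °C.

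The brain level was also read at a temperature that took no part in the choice. Genes were chosen again by the same rule from the other 2 temperatures, and the held-out libraries were then read, 1 per tissue and with no test. With 28 °C held out, 16 genes were chosen, 9 of them members, and brain was the lowest tissue at 28 °C for 13, or 81.2%. Over all genes with an RPKM of 5 in the other 6 tissues there, the share was 28.7%. With 18 °C held out, 23 genes were chosen, 11 of them members, and brain was lowest for 18, or 78.3%, against 24.5%.

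With 10 °C held out, 29 genes were chosen, 11 of them members. Brain was lowest at 10 °C for 15, or 51.7%, against 50.4% of all genes. The chosen genes, unlike all genes, did not have to reach an RPKM of 5 at the held-out temperature. Of those that did, brain was lowest for 11 of 12 at 28 °C, 14 of 16 at 18 °C and 10 of 14 at 10 °C. The full gap of 1.5 carried over less often. It was met by 2 of 16 genes at 28 °C against a background of 2.87%, by 3 of 23 at 18 °C against 0.73%, and by 6 of 29 at 10 °C against 9.72%. Among those at an RPKM of 5 there it was met by 2, 2 and 4. Over all chosen genes the median held-out gap was 0.91, 0.73 and 0.05.

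Outside brain the members ranged from modest to very high levels. Their mean RPKM over the other 6 tissues ran from 11.6 to 1515 with a median of 215, against a median of 21.7 over the 1074 genes at the RPKM minimum, and 14 of the 16 lay above that median. Without the 3 libraries that stood apart the medians were 132 and 19.3. Among the 6 tissues their highest mean was a median of 6.22 times their lowest, against 4.17 for the 1074 genes. That order turned without the 3 libraries, with 3.43 against 3.81. Liver was the highest tissue for 9 of the 16 genes, against 36.6% of the 1074. Heart was the highest for 4, against 13.1%, gill for 2, against 10.8%, and muscle for 1, against 15.8%. Gill was the lowest of the 6 for 6 genes, against 28.7% of the 1074, muscle for 4, against 25.2%, and kidney for 3, against 9.96%. Heart, liver and spleen were the lowest for 1 each, against 6.89%, 12.7% and 16.6%. Without the 3 libraries gill was the lowest for 3, muscle for 1, kidney for 0 and heart for 4. No share of the 1074 genes was computed for the lowest tissue without these libraries, so nothing is read from those counts. The rule used the means of these same values, so the levels, spreads and counts beside the 1074 genes are a description and no test.

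The place of liver depended on its 28 °C library. Without that library alone, liver was the highest tissue for 5 members and the lowest of the 6 for 7, and 25.6% of the 1074 genes were highest in liver. Without all 3 libraries that stood apart the counts were also 5 and 7, and 27.7% of the 1074 genes were highest in liver. The share of the 1074 genes lowest in liver was not computed without these libraries, so nothing is read from the counts of 7. All 5 members with a brain mean over 50 RPKM were highest in liver and lowest, after brain, in gill. Without the 3 libraries 2 of those 5 remained highest in liver. No share over other genes at such brain levels was computed, so nothing is read from the counts of these 5.

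Most of the members were shorter than the median gene, and 4 of the 16 were longer. The gene length implied by the RPKM values had a median of 1080.5 bp for the members, against 2076 bp for the 1074 genes and 2644.5 bp for all. The shortest was ENSONIG00000012900, at 327 bp, and the longest ENSONIG00000002337, at 8409 bp. Of the 16, 9 were shorter than the first quartile of the 1074 genes, 1205 bp.

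Of the libraries that stood apart, the members differed most in liver at 28 °C. Relative to the other 2 libraries of the tissue, the members' median was −0.32 in brain at 10 °C, where 9 were lower and 7 higher. It was 0.88 in heart at 18 °C, where 10 were higher and 6 lower, and 1.63 in liver at 28 °C, where 15 were higher. These included long members: ENSONIG00000002337, at 8409 bp, had 31.1 RPKM in liver at 28 °C against 9.52 and 13.2 at 18 and 10 °C. Of the 16 members, however, 9 were shorter than 1205 bp. How far gene length accounts for the members' values in these libraries was not tested. With the length trend removed from every library, 10 genes met the rule, 7 of them members. Without the 3 libraries 29 genes met it, 10 of them members.

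The rule was met by 2 members under each of the 16 other settings tried, ENSONIG00000014377 and ENSONIG00000011188. The settings changed the pseudocount, the thresholds, the scaling and the libraries used. ENSONIG00000012900 and ENSONIG00000005440 met it under the fewest, 7 of the 16. A gap of 1, an RPKM minimum of 2 and a pseudocount of 0.1 loosen the rule, so all 16 members had to meet it there. All settings reuse the values that chose the members, so these counts are a description and no test. Leaving out a temperature kept 9 of the 16 members without 28 °C and 11 each without 18 °C and without 10 °C. Leaving out brain at 10 °C alone gave 28 genes, 11 of them members. Rescaling the libraries kept 13 members by upper quartile, 9 by median ratio and 16 by trimmed mean.

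**Figure D4:**
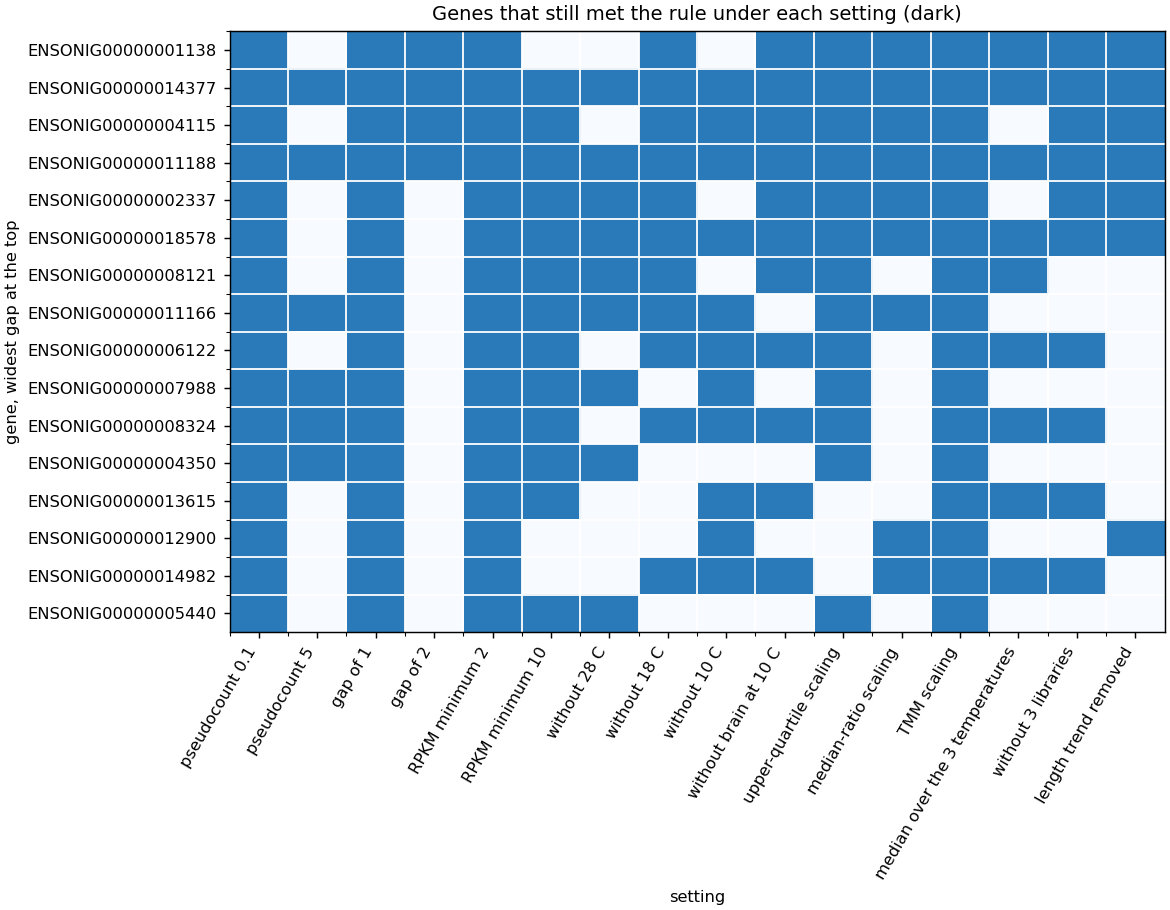
Grid of the 16 genes (rows) and 16 settings of the rule (columns), with a dark cell where the gene still met the rule. The rows of ENSONIG00000014377 and ENSONIG00000011188 are dark throughout, and those of ENSONIG00000012900 and ENSONIG00000005440 are dark in 7 columns.

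Brain was not alone in having such a set. With another tissue in its place, the same rule took 20 genes for liver, 16 for gill, 9 for muscle, 5 for spleen, and 0 for heart and for kidney.

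The rule compared tissues and not temperatures, and the response to cold was tested across all genes. A mean over temperatures can still be carried by 1 of them: without 28 °C 9 of the 16 remained members, and ENSONIG00000004115 was not among them. Across tissues, no member passed the test between 10 and 28 °C. limma on log2(RPKM + 1), with tissue as a block and Benjamini-Hochberg adjustment over 15312 genes, called 0 of the 16 members and 0% of all genes. The smallest adjusted p among members was 0.667. At an unadjusted p under 0.05 there were 0 members and 1120 genes. limma-voom on the solved reads also called 0 members, with 2 members and 893 genes at that p. Of the 16, 15 had a fitted value below 0, with a median of −0.50 log2 units against −0.07 for all genes, of which 40.4% were above 0. Without liver the median was −0.21, and without the 3 libraries −0.24.

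The member with the smallest p among those lower in the cold was ENSONIG00000007988, at −0.96 (SE 0.48, limma adjusted p = 0.667). The only one with a higher fitted value was ENSONIG00000002337, at 0.71 (SE 0.36, limma adjusted p = 0.667). Over all settings the adjusted p of ENSONIG00000007988 ran from 0.574 to 1.00 and that of ENSONIG00000002337 from 0.589 to 1.00. Neither passed the test.

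Between 18 and 28 °C limma called 0 members and 0% of all genes, with a smallest adjusted p of 1.00. At an unadjusted p under 0.05 there were 0 members and 639 genes, and limma-voom called 0 and had 0 members and 711 genes at that p. The members' median was −0.30 against −0.03 for all genes. Without liver it was 0.04, and 9 of the 16 were above 0, and without the 3 libraries it was −0.19.

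Liver was the tissue where the members differed most between temperatures. Between its single libraries at 10 and 28 °C, 14 of 16 members were lower by 2-fold or more and 0 higher. Of 4419 liver genes 1969 were lower by 2-fold or more, and 65.5% differed 2-fold in either direction. The members' median was −1.74, against −0.34 for the genes at the RPKM minimum and −0.71 for all liver genes. At 18 °C the median against 28 °C was −1.59, and between 10 and 18 °C it was −0.16, with 13 of 16 members differing by less than 1 log2 unit. For 14 of the 16 the highest of the 3 liver values was that at 28 °C. This is the library where short genes were high. No share over all liver genes was computed for these 14 or for the 13 within 1 log2 unit, so neither count is read further. With the length trend removed from every library, the members' median liver slope was −1.32, against −1.75 as deposited, and 15 of 16 were below 0 in both. Over all genes tested, 46.0% of liver slopes were above 0 as deposited and 49.4% with the trend removed. How far gene length accounts for the members' liver values was not tested. At an unadjusted p under 0.05 there were 3 members in place of 8, and 2488 genes in place of 2552.

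In the slope fit, which gives each tissue a straight line over the 3 temperatures, limma called 1 member in liver, against 2.33% of all genes. This was ENSONIG00000004115, whose membership needed the 28 °C libraries, with liver values of 355, 13.1 and 5.63 RPKM at 28, 18 and 10 °C, from 161, 5 and 2 reads. The fitted change from 28 to 10 °C was −5.85 (SE 1.23, limma adjusted p = 0.0365). Over the other settings the adjusted p ran from 0.0181 to 0.749. At an unadjusted p under 0.05 there were 8 members in liver, against 2552 of the 15312 genes. limma-voom called 0 members and also had 8 at that p, against 1520 genes. Without the 3 libraries the liver line rests on 18 and 10 °C alone and is extended to 28 °C, so its values measure another interval. On that line ENSONIG00000004115 had −2.46 (limma adjusted p = 0.749), from 5 and 2 reads, and 0 members had an unadjusted p under 0.05.

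**Figure D5:**
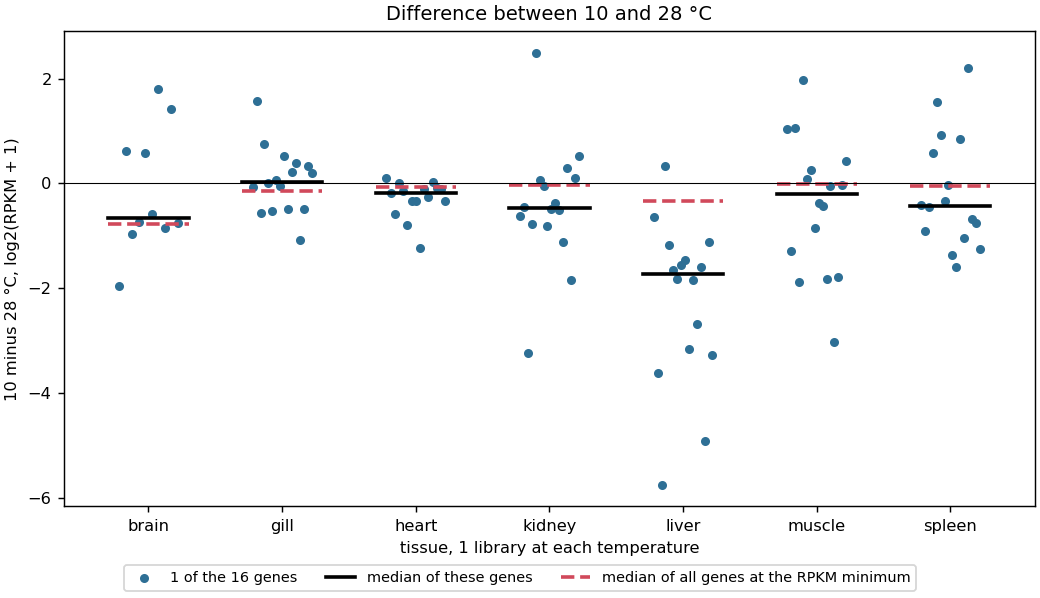
Difference between 10 and 28 °C in log2(RPKM + 1) within each tissue (1 library at each temperature), for the members that reached an RPKM of 5 at either temperature. Solid lines mark the median of these genes and dashed lines that of all genes at the RPKM minimum; in liver the medians are −1.74 and −0.34.

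The other tissues gave fewer 2-fold differences between 10 and 28 °C. A member enters these counts once it reaches the RPKM minimum at either temperature, so the filter favours members that differ, and the counts support nothing. In brain 3 of the 10 members at an RPKM of 5 differed 2-fold or more between 10 and 28 °C, against 53.6% of all brain genes, and 1 of the 3 passed the minimum at 10 °C only. The count was 2 of 16 in gill against 36.6%, 1 of 15 in heart against 15.3% and 4 of 16 in kidney against 21.8%. It was 8 of 16 in muscle against 31.7% and 6 of 16 in spleen against 42.9%. Of the 8 in muscle 3 passed the minimum at a single temperature, as did 1 of the 4 in kidney and 1 of the 14 in liver. In heart 13 of 15 members had a lower value at 10 °C, with a median of −0.18 against −0.15 for all heart genes, and 9 of 15 with median-ratio scaling. Between 18 and 28 °C the count was 9 of 16 in heart against 56.1% and 12 of 16 in liver against 64.2%. It was 6 of 16 in kidney against 24.8% and 5 of 16 in spleen against 31.9%. Muscle had 2 of 16 against 35.0%, gill 1 of 16 against 36.1% and brain 1 of 10 against 4.47%. Each pair is 1 library against 1, with no replicate check.

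The slopes called 0 members outside liver. The share of all genes called by limma was 0.666% in brain, 0.0849% in gill and 0.00653% in heart. It was 0.0457% in kidney, 0.098% in muscle and 0.00653% in spleen. At an unadjusted p under 0.05 there were 2 members in kidney, 3 in muscle and 0 in brain, gill, heart and spleen. Over all 15312 genes there were 575 in kidney, 1146 in muscle, 1669 in brain, 898 in gill, 414 in heart and 796 in spleen. limma-voom also called 0 in these 6 tissues, with 1 member in brain, 2 in kidney, 2 in muscle and 0 in gill, heart and spleen at that p. Over all genes limma-voom had 646 in brain, 898 in kidney, 386 in muscle, 816 in gill, 543 in heart and 679 in spleen.

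In brain itself the 16 genes went both ways, 8 above 0 and 8 below, with a median slope of 0.03 log2 units from 28 to 10 °C. Of all genes tested, 45.5% were above 0. The smallest p among the members higher in the cold was that of ENSONIG00000008324, with 14.2, 20.3 and 51.6 RPKM at 28, 18 and 10 °C from 46, 113 and 95 reads. Its slope was 1.75 (SE 0.83, limma adjusted p = 0.476). On the lower side it was that of ENSONIG00000014377, at −1.89 (SE 1.42, limma adjusted p = 0.686), whose 10 °C value rests on 23 reads. Without the 3 libraries that stood apart the brain line rests on 28 and 18 °C alone and is extended to 10 °C. On that line 9 members were above 0 and 7 below, against 60.1% of all genes above 0. The median was 0.04 against 0.08 for all genes, and 7 members changed sign.

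Whether the brain level moved apart from the other tissues with cold was tested as the brain slope minus the mean of the other 6 slopes. limma called 0 members, against 0.366% of all genes, with 1 member and 1445 of the 15312 genes at an unadjusted p under 0.05. limma-voom also called 0 and had 1 member and 524 genes at that p. That member in the limma fit was ENSONIG00000008324, where the difference was 2.34 (SE 0.90, limma adjusted p = 0.435). Its gap to the lowest other tissue was 2.88 at 28 °C, 1.70 at 18 °C and 0.23 at 10 °C. Outside brain it ran from 60.5 to 1346 RPKM with a median of 200, and brain was below each of those libraries at every temperature. No change in this gap itself was tested. Over all 16 members the brain slope minus the mean of the other 6 had a median of 0.32, against −0.02 for all genes. Of the members 9 were above 0 and 7 below, and 48.9% of all genes were above 0. Without the 3 libraries that stood apart the median was 0.40, against 0.19 for all genes. There 11 members were above 0 and 5 below, and 60.2% of all genes were above 0. In that setting the brain line rests on 28 and 18 °C and the liver line on 18 and 10 °C. The difference thus sets slopes over unlike intervals against each other, and nothing is read from it.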

How the data were processed

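The deposited values are RPKM per Ensembl gene ID, 1 table per library, per the file headers. RNA was extracted with Trizol and made into libraries with an Illumina TruSeq kit, per the labels' protocols. The submitters' processing notes name HTSeq, TopHat and Bowtie. Not given in the sources used here: versions, roles, genome build and annotation.

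Each RPKM equals whole reads over gene length and a library constant. Solving for these gave 17094 of 17098 genes, with 100.0% of values whole within 0.001 reads. The reads give depth, length and counting error, and limma-voom was run on them with median-ratio library sizes. The tests used limma 3.58.1 in R 4.3.3 on log2(RPKM + 1), with the mean-variance trend option. That scale understates changes of low genes. The 15312 genes tested reached an RPKM of 1 in 3 or more libraries. The first model held tissue and temperature as factors (12 residual degrees of freedom), the other a slope per tissue (7). Tests were two-sided, with a threshold of 0.05 on the Benjamini-Hochberg adjusted p. The p-values measure spread between tissues or about a line, not between replicate fish. The solving of reads, the fit across tissues and the slope fit were tested on simulated data.

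The members, lists and tests were chosen with earlier results of these data known. The lists of marker genes, written as symbols, could not be used. Genes were named by widest gap, highest level outside brain, nearness to the threshold and, in each temperature comparison, at most 2 in each direction by p; others are said to be chosen after their values were seen. The alternatives are another pseudocount, filter, threshold or scaling, no tissue block, and leaving out libraries, tissues or temperatures. Removing the length trend, leaving 3 libraries out of the rule and upper-quartile scaling for the same rule in other tissues were added after seeing the data.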

Additional observations from a re-analysis of the deposited data

Results flagged for a closer look

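The median difference between 10 and 28 °C over all 16 members was −1.74 log2 units in liver, far from the medians of the other 6 tissues, which lay between −0.47 and 0.03. It was found among 8 sets of 7 tissue values. The sets share the 28 °C libraries, and the values went into the means that chose the members. No chance rate can therefore be set beside it. All genes with an RPKM of 5 in either liver library also had a median below 0, at −0.71. Liver at 28 °C is a library in which short genes were high, by a median of 1.68 over the tissue's other libraries. With the length trend removed from every library, the members' median liver slope was −1.32 against −1.75 as deposited, with 15 of 16 below 0 in both. Over all genes tested, 46.0% of liver slopes were above 0 as deposited and 49.4% with the trend removed. The part of gene length in this was not tested. Each tissue gave 1 library at each temperature.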

How the results depend on the processing

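The number of genes that met the rule, 16, was 6 with a pseudocount of 5, 56 with a gap of 1, 4 with a gap of 2 and 25 with an RPKM minimum of 2. It was 29 without 10 °C, 28 without brain at 10 °C, 29 without the 3 libraries and 10 with the length trend removed. The liver slope called 0 members with a pseudocount of 0.1, upper-quartile scaling, the 3 libraries left out or limma-voom. The fitted liver change of ENSONIG00000004115 was then −6.06, −5.59, −2.46 (18 and 10 °C only, extended to 28 °C) and −6.39. Over 94 alternative fits, 90 called 0 members and 4 called 1. With 28 °C held out, 8 genes were chosen and 6 were lowest in brain with a pseudocount of 5, 10 and 7 with median-ratio scaling, and 8 were lowest with the length trend removed. With 18 °C held out the counts were 7 and 6 with a pseudocount of 5, and 14 and 10 with the length trend removed. With 10 °C held out they were 6 and 4 with a pseudocount of 5. With that pseudocount 1 member differed 2-fold in gill, and the same rule took 3 genes for gill, 3 for liver, 0 for muscle and 2 for spleen. It took 9 for gill and 35 for liver with upper-quartile scaling, and 1 for heart and 5 for muscle with median-ratio scaling. Among the genes named by p, fitted values changed sign for ENSONIG00000001138 at 18 against 28 °C without heart, to −0.02, and without the 3 libraries in liver for ENSONIG00000011188, to −0.42, and ENSONIG00000005440, to 0.77, both on that extended line; none of these passed the test. Over all 16 members, 8 changed sign at 18 against 28 °C without liver, and 7 each in the brain and liver slopes without the 3 libraries. Another 128 counts equalled the value reported or stayed within 1.5 times it, and many of these are fits with 0 members called in both. They compare numbers of genes and not which genes. Median-ratio scaling gave 11 genes, 9 of them members. The median over the 3 temperatures in place of the mean gave 16 genes, also with 9 members. The cause of these changes was not tested. The labels give no replicate numbers; tissue was the block across temperatures, and without it limma also called 0 members. Depth limits the low members: 7 had fewer than 50 reads over the 3 brain libraries.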
